A study of Mus musculus with 32 samples.

Results

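The cell cycle and DNA replication genes described here are 48 genes that drive a cell from G1 through S phase and mitosis. They were taken by gene symbol from the count table, and 48 of 48 were present among its 11818 genes. The genes were grouped by role into 5 genes of G1 (the D-type cyclins and their kinases), 21 genes of S phase and 22 genes of mitosis. RNA was sequenced from mouse lung organoids, in which freshly isolated Epcam+ lung cells (CD45-/CD31-/Epcam+) grew in Matrigel beside CCL206 cells, a mouse lung fibroblast line. Each culture started from 300000 cells of each type. After 72 h the organoids were dissociated and resorted with Epcam microbeads into an Epcam+ fraction and a CCL206 fraction, and both were sequenced. Epcam+ cells of 4 mice were used, each mouse in all 4 treatments, which gave 32 libraries in 8 groups of 4.

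The 4 treatments were vehicle, MRC5-derived extracellular vesicles (EVs, 1000000000 particles/mL), MRC5-derived soluble factors (SFs, 30 µg/mL) and OGN, the human recombinant protein osteoglycin (10 µg/mL). MRC5 is a human lung fibroblast line. The CCL206 fibroblasts of all 8 groups, vehicle included, had been made unable to divide with mitomycin C (10 µg/mL for 2 h) before the culture began. The mice were 8 to 14 weeks old. All CCL206 libraries came from 1 cell line, so that a mouse number in that fraction names the animal whose Epcam+ cells shared the culture, and the replicates are separate cultures. In such bulk RNA, fewer cells of a type and less RNA per cell cannot be told apart.

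The D-type cyclins bind Cdk4 and Cdk6 in G1 and relay growth signals to the RB proteins, which hold E2F factors in check. E2F factors then drive the genes for cyclin E, for the origin licensing proteins that load the MCM helicase onto DNA, and for the enzymes that make nucleotides and copy the genome. Later in the cycle, genes for mitotic kinases, cyclin B, the spindle and the kinetochore are switched on together by MuvB with B-MYB and FOXM1, after the DREAM complex, which holds them silent in quiescence and G1, has come apart. Mitomycin C crosslinks DNA, which blocks replication and activates p53 and its target Cdkn1a (p21, an inhibitor of cyclin-dependent kinases). Growth-inactivated fibroblasts are used as a feeder layer in lung organoids because they keep signaling to the epithelium without overgrowing it.

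Promoters are shown first because the S-phase and mitotic genes are read separately throughout. RefSeq promoter windows on GRCm38.p6, from 250 bases before to 50 bases after the gene's start, were matched to 39 of the 48 genes. A gene counted as holding a word where any of its windows did. An E2F word was counted as TTTCCCGC or TTTCGCGC or TTTGCCGC or TTTGGCGC, on both strands, and matches on the opposite strands can overlap by several letters. It was found in 9 of 18 S-phase genes (50%), 1 of 18 mitotic genes (5.56%) and 2.6% of all 27025 symbols in the reference. Among the origin licensing genes it was in 6 of 7. The letters below are those of 3 licensing genes, 5′ to 3′ on the gene's strand, with the E2F words in capitals. They lie at chr1:128359656-128359955 (minus strand) for Mcm6, chr1:20820263-20820562 (minus strand) for Mcm3 and chr8:75109259-75109558 (plus strand) for Mcm5.
Mcm6: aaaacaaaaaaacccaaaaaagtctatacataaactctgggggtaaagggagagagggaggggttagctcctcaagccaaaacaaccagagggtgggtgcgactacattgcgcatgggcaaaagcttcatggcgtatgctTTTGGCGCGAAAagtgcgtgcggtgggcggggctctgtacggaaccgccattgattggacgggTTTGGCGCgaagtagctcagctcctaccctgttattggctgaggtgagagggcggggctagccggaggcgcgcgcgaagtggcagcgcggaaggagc
Mcm3: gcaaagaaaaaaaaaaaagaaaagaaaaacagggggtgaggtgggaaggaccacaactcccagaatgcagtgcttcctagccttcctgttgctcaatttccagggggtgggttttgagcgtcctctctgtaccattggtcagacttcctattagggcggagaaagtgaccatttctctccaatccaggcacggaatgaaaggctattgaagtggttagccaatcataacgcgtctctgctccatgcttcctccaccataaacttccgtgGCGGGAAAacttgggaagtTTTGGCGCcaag
Mcm5: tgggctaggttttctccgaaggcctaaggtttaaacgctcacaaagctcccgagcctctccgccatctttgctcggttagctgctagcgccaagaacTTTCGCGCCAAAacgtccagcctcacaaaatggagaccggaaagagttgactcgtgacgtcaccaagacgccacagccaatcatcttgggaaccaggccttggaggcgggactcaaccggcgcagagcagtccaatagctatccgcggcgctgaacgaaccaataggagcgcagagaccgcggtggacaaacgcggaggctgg

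The word of the cell cycle homology region (CHR), counted as TTTGAA or TTTAAA on both strands, was found in 16 of 18 mitotic genes (88.9%), 7 of 18 S-phase genes (38.9%) and 30.6% of all symbols. CCAAT, the word bound by NF-Y, was in 16 of 18 mitotic genes, 10 of 18 S-phase genes and 41.1% of all symbols. Both words stood together in 15 of 18 mitotic genes (83.3%), 4 of 18 S-phase genes (22.2%) and 12.2% of all symbols. None of the 3 G1 genes with a window held an E2F word or a CHR word. The 4 mitotic promoters below belong to genes described in later paragraphs, with CHR and CCAAT words in capitals. They lie at chr11:99024140-99024439 (minus strand) for Top2a, chr4:118437294-118437593 (minus strand) for Cdc20, chr5:30666636-30666935 (plus strand) for Cenpa and chr13:100786437-100786736 (minus strand) for Ccnb1. A match describes the letters and is neither a binding site nor a cause.
Top2a: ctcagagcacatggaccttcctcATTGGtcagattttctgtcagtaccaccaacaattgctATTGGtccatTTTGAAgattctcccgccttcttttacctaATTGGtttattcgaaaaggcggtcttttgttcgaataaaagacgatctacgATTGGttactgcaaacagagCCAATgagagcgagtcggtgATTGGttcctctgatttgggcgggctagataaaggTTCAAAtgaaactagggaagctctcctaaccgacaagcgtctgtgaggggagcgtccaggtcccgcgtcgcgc
Cdc20: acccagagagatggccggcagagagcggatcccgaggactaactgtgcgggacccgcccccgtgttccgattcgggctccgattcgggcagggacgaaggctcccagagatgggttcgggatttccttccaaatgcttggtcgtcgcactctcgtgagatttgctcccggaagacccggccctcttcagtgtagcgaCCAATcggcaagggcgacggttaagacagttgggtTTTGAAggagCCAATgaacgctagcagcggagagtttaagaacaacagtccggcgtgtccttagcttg
Cenpa: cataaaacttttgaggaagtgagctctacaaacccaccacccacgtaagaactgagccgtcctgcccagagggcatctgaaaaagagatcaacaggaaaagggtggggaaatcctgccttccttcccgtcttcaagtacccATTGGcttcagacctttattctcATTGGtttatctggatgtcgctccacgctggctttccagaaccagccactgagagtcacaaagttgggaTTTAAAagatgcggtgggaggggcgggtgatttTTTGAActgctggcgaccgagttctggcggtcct
Ccnb1: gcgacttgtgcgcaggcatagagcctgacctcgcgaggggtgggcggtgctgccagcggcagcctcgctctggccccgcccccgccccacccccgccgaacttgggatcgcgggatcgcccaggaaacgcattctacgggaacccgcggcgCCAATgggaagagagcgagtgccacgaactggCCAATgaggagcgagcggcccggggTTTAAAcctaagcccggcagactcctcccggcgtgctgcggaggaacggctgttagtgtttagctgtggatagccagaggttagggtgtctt

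The libraries held between 1805914 and 17675454 counts (median 5901652), and the lowest count of any member in any library was 40 (Ccne1). Levels are given as CPM, counts scaled to library size after TMM normalization. Marker genes were checked before the members were compared. The summed CPM of 9 fibroblast signature genes was between 11569 and 12907 in vehicle-treated CCL206 libraries and between 2239 and 3111 in vehicle-treated Epcam+ libraries. The summed CPM of 10 epithelial genes was between 236 and 617 in the former and between 5997 and 6241 in the latter. For the 10 genes of the study's AT2 (alveolar type 2 cell) signature it was between 1876 and 4841 in the former and between 9552 and 15999 in the latter. Each fraction thus also held RNA of the other population's markers. Of 12 macrophage and leukocyte markers 3 could be read (Cd14, Cd68 and Lyz2, without Ptprc), with a sum of 464 to 513 CPM in vehicle-treated Epcam+ cells. Of 8 endothelial markers only Vwf could be read, at 0.322 to 3.91 CPM. Of the CCL206 libraries treated with EVs, those of mice 2 and 4 stood apart. Their deviations from vehicle, like those of the other EV libraries, correlated with transcript length across 11686 genes, with rho of -0.29 in mouse 1, -0.58 in mouse 2, -0.36 in mouse 3 and -0.62 in mouse 4. The other treated libraries had rho between -0.29 and 0.33, so that mouse 1 lay at the edge of their range. The fibroblast signature summed to 9281 and 7834 CPM in the EV libraries of mice 2 and 4 and to 11751 and 13005 CPM in those of mice 1 and 3. Counts of called genes with EVs in fibroblasts are therefore given with and without the libraries of mice 2 and 4.

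The first comparison set growing Epcam+ cells against growth-inactivated fibroblasts of the same cultures. All CCL206 cells and no Epcam+ cells had received mitomycin C. In every comparison of the populations, growth inactivation, cell type and primary cells against a cell line therefore cannot be told apart. With vehicle, 42 of the 48 genes were higher in Epcam+ cells and 1 was lower (edgeR's quasi-likelihood F test, Benjamini-Hochberg adjusted p below 0.05), where 35.3% of the 11805 genes tested were higher and 34.3% lower. The median log2 fold change was 1.34 over the members and 0.02 over all genes tested. S-phase and mitotic genes were almost uniformly higher, whereas G1 genes were not. In S phase 21 of 21 genes were higher (median 1.14), in mitosis 21 of 22 (median 1.60), and in G1 0 of 5 (median -0.08). All 4 Epcam+ libraries were above all 4 CCL206 libraries for 42 genes, all 4 were below for 2, and the groups overlapped for 4. Of all genes, 32.4% separated upward and 33.4% downward in the same way.

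**Figure D1:**
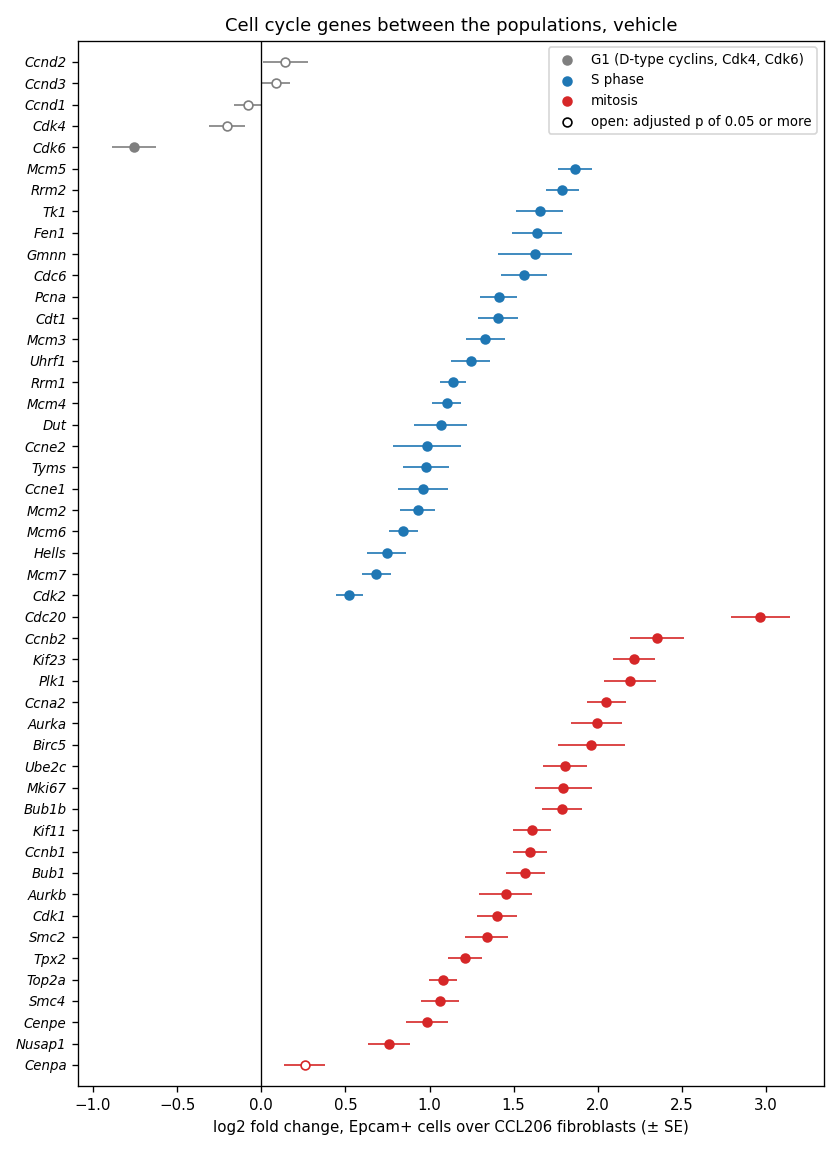
Log2 fold change between vehicle-treated Epcam+ cells and CCL206 fibroblasts (± SE, 4 libraries each) for the 48 genes, ordered within G1, S phase and mitosis. Filled points passed an adjusted p of 0.05. All 21 S-phase genes and all 22 mitotic genes lie to the right of 0, from Cenpa at 0.26 to Cdc20 at 2.97, while the G1 genes lie between -0.76 and 0.14.

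The D-type cyclins and their kinases sense growth signals in G1. Ccnd1, cyclin D1, was at 896, 916, 814 and 874 CPM in vehicle-treated Epcam+ cells of mice 1 to 4 and at 936, 1031, 874 and 881 CPM in CCL206 fibroblasts. The ranges overlapped, and the log2 fold change was -0.08 ± 0.08 (SE, adjusted p = 0.41, edgeR, 95% interval -0.25 to 0.09). Per kilobase of transcript, Ccnd1 was the most abundant member in both populations, at 231 ± 11.6 CPM per kb (SD, n = 4) in Epcam+ cells and 245 ± 19.1 in fibroblasts. Ccnd2 was at 315, 435, 325 and 241 CPM in Epcam+ cells and at 263, 271, 311 and 336 CPM in fibroblasts, again with overlap. Cdk6, a kinase partner of these cyclins, was the 1 member lower in Epcam+ cells. It was at 91.0, 89.7, 94.8 and 73.9 CPM there and at 158, 168, 129 and 139 CPM in fibroblasts, without overlap (log2 fold change -0.76 ± 0.13, adjusted p = 7.2e-06). Cdk4 was at 243 ± 6.53 CPM in Epcam+ cells and 282 ± 18.4 CPM in fibroblasts (SD, n = 4), a difference that did not pass the test (adjusted p = 0.088).

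Cyclin E and Cdk2 start S phase, and all 3 of their genes were higher in Epcam+ cells (median log2 fold change 0.96). Ccne1 was at 23.6, 29.9, 20.8 and 18.1 CPM in Epcam+ cells and at 13.2, 13.9, 8.84 and 11.9 CPM in fibroblasts (log2 fold change 0.96 ± 0.15, adjusted p = 1.6e-06). Cdk2 was at 61.0, 51.1, 57.8 and 60.5 CPM against 43.3, 39.0, 39.6 and 39.9 CPM (0.52 ± 0.08, adjusted p = 1.6e-06), the smallest of the called increases. Neither gene's groups overlapped. Ccne2 was at 18.8, 13.8, 26.3 and 19.5 CPM against 10.6, 11.8, 11.2 and 6.93 CPM. It had the lowest level per kilobase in both populations, at 3.77 CPM per kb in Epcam+ cells and 1.94 in fibroblasts.

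Origin licensing loads the MCM helicase onto DNA before S phase, and 9 of 9 of its genes were higher in Epcam+ cells (median log2 fold change 1.33). Mcm5, a helicase subunit, was at 249, 272, 224 and 218 CPM in Epcam+ cells and at 74.3, 68.7, 67.0 and 56.2 CPM in fibroblasts (1.86 ± 0.10, adjusted p = 5.4e-16). Mcm4 was at 166, 179, 154 and 145 CPM against 76.1, 84.8, 72.1 and 68.7 CPM (1.10 ± 0.09, adjusted p = 1.5e-12). The groups did not overlap for either subunit. The subunits of the helicase differed in the size of the difference, with Mcm7 the smallest at 0.68 ± 0.09. Cdt1 and Cdc6, the loading factors, and Gmnn (geminin), which inhibits Cdt1, lay at 1.41, 1.56 and 1.63.

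DNA synthesis and its maintenance comprised the sliding clamp, nucleotide enzymes and chromatin factors, and 9 of 9 genes were higher in Epcam+ cells (median 1.25). Rrm2, the small subunit of ribonucleotide reductase, was at 182, 181, 150 and 158 CPM against 63.5, 50.8, 43.6 and 39.2 CPM in fibroblasts (1.79 ± 0.10, adjusted p = 7.9e-16). Rrm1, the large subunit, was at 265, 279, 265 and 269 CPM against 121, 138, 121 and 114 CPM (1.14 ± 0.08, adjusted p = 4.7e-14). The difference of the small subunit thus exceeded that of its partner, although no test of the difference between genes was made. Pcna, the sliding clamp, was at 280, 297, 286 and 266 CPM against 110, 116, 109 and 92.9 CPM. It was second to Ccnd1 per kilobase in Epcam+ cells (186 ± 8.46 CPM per kb, SD, n = 4).

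Mitotic entry kinases, cyclins and proteolysis genes showed the largest class median, 1.99, and 9 of 9 were higher in Epcam+ cells. Ccna2, cyclin A2, was at 183, 197, 183 and 154 CPM against 55.7, 46.6, 40.0 and 32.9 CPM in fibroblasts (2.05 ± 0.12, adjusted p = 2e-15). Cdc20, which activates the anaphase-promoting complex, was at 219, 193, 201 and 187 CPM against 37.3, 21.8, 25.0 and 19.4 CPM (2.97 ± 0.18, adjusted p = 3.8e-15), the largest difference of the 48. The fibroblast libraries of both genes lay far below all Epcam+ libraries. Ccnb1, cyclin B1, was at 143, 150, 151 and 129 CPM against 52.0, 60.4, 42.8 and 38.2 CPM. Its kinase Cdk1 was at 128, 140, 132 and 142 CPM against 53.8, 62.9, 49.3 and 42.0 CPM.

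Spindle, kinetochore and checkpoint genes were higher in 8 of 9 cases (median 1.57). Kif23, a kinesin of the central spindle, was at 159, 179, 181 and 158 CPM against 46.4, 36.5, 35.2 and 29.3 CPM (2.22 ± 0.12, adjusted p = 1.3e-15). Bub1b, a spindle checkpoint kinase, was at 113, 114, 103 and 102 CPM against 33.8, 38.0, 28.9 and 26.2 CPM (1.79 ± 0.12, adjusted p = 3.8e-14). Cenpa, the centromeric histone H3 variant, was the exception. It was at 66.6, 73.0, 88.4 and 73.9 CPM in Epcam+ cells and at 72.4, 76.8, 57.9 and 49.3 CPM in fibroblasts, with overlap (0.26 ± 0.12, adjusted p = 0.061, unadjusted 95% interval 0.01 to 0.51).

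The 4 genes of mitotic chromosome structure were all higher in Epcam+ cells (median 1.21). Top2a, topoisomerase II alpha, was at 542, 601, 542 and 462 CPM against 302, 279, 226 and 222 CPM (1.08 ± 0.08, adjusted p = 1.5e-12). Mki67, which encodes the proliferation marker Ki-67, was at 669, 707, 658 and 570 CPM against 236, 202, 156 and 168 CPM (1.80 ± 0.17, adjusted p = 1.1e-10). All Epcam+ libraries were above all fibroblast libraries for both genes. The CCL206 fraction nevertheless held 190 ± 36.0 CPM of Mki67 and 257 ± 39.7 CPM of Top2a (SD, n = 4). How much of this RNA came from Epcam+ cells left in that fraction was not tested.

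**Figure D2:**
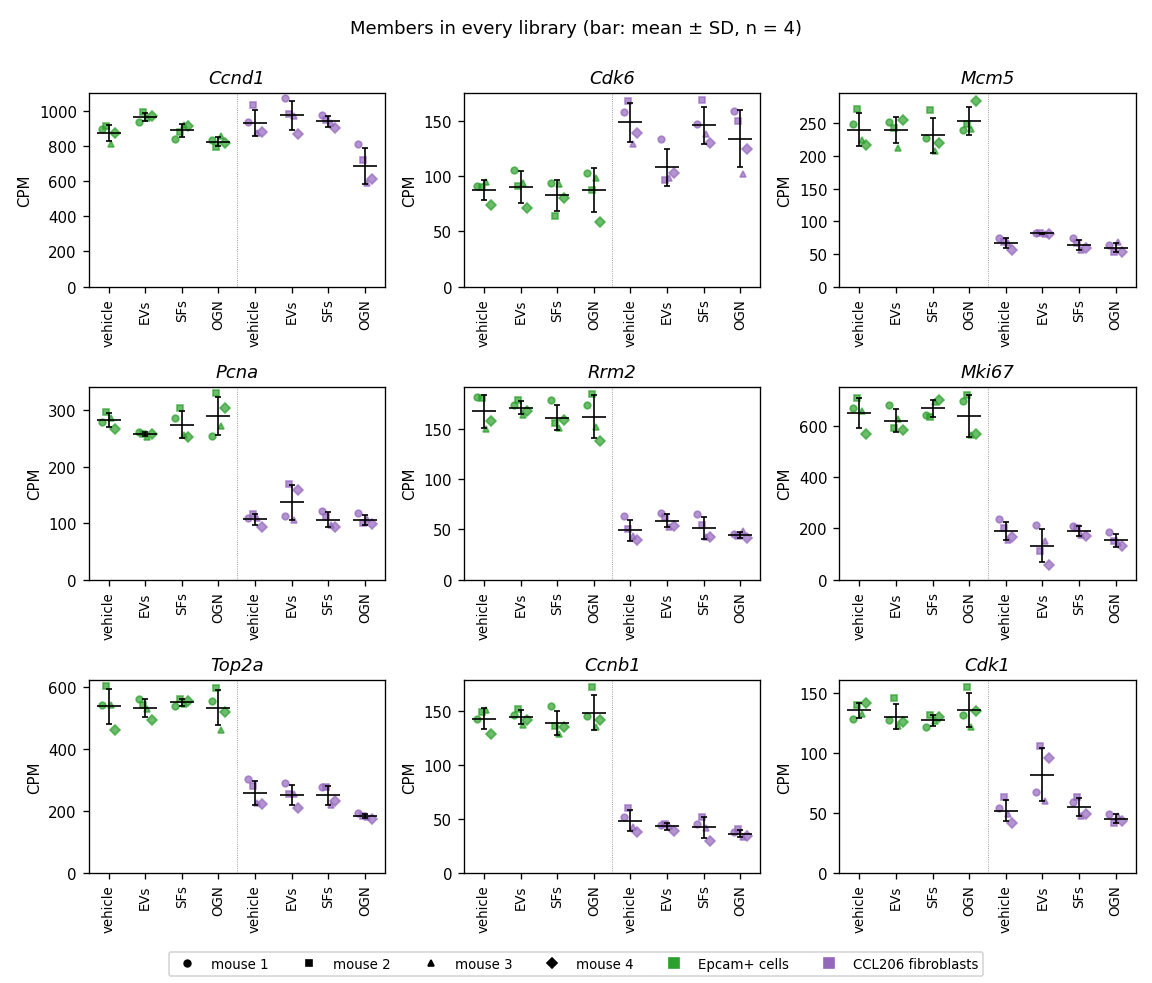
CPM of 9 members in each of the 32 libraries, by population (color) and treatment, with 1 symbol per mouse and the mean ± SD of 4 libraries. Mcm5, Pcna, Rrm2, Mki67, Top2a, Ccnb1 and Cdk1 separate the populations in each treatment. The means of Ccnd1 lie between 825 and 974 CPM in 7 groups and at 685 CPM in OGN-treated fibroblasts. Cdk6 is higher in fibroblasts with vehicle, SFs and OGN. With EVs it stands there at 121% of the Epcam+ level on average, without passing the test.

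The level in the CCL206 fraction was expressed as a percentage of the Epcam+ library of the same culture. With vehicle, the median over S-phase genes was 45.6%, 46.4%, 42.5% and 42.5% in the cultures of mice 1 to 4, and the median over mitotic genes was 38.6%, 36.3%, 28.2% and 29.6%. The mitotic median was below the S-phase median in 4 of 4 cultures. The median over G1 genes was 111% ± 9.89 (SD, n = 4). Single genes ranged from 12.8% ± 2.97 for Cdc20 to 171% ± 24.8 for Cdk6. In the same cultures the Epcam gene itself stood at 5.44%, 3.80%, 3.99% and 2.66%. The median over 10 epithelial markers was 5.66% ± 2.07, and that over the 10 genes of the AT2 signature 22.7% ± 8.28. Single genes of the AT2 signature ranged widely, from 9.49% for Hopx to 121% for Sftpc. The lowest member, Cdc20, lay between the epithelial and the AT2 median and below the epithelial marker Nkx2-1 (16.2%). Ccnb2 (20.3%), Kif23 (21.9%) and Plk1 (22.2%) were also below the AT2 median, and the other members were above it.

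**Figure D3:**
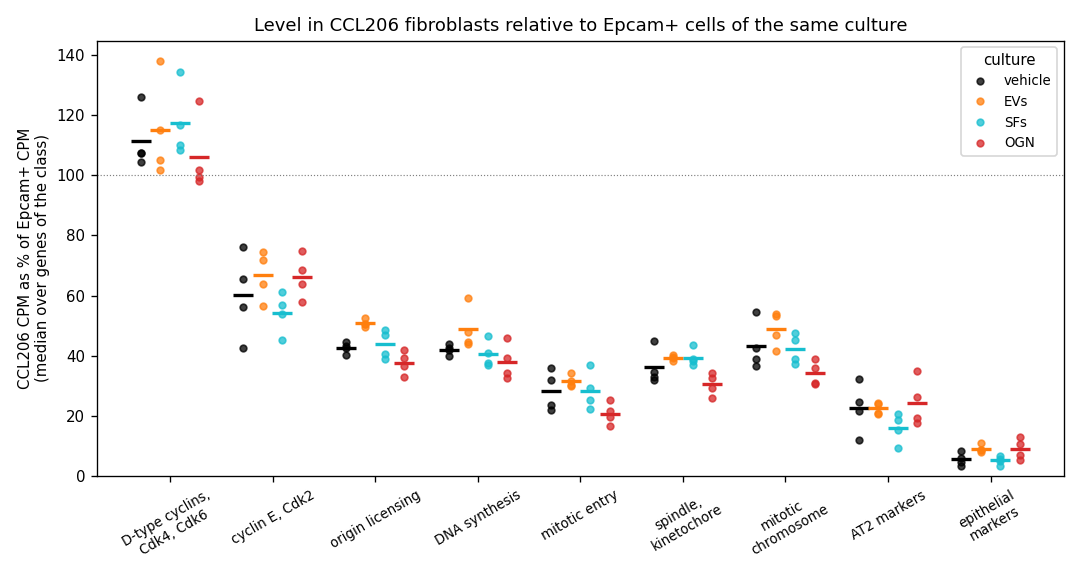
CPM in CCL206 fibroblasts as a percentage of the CPM in Epcam+ cells of the same culture, as the median over the genes of each class, with 1 point per mouse and a dash for the mean of 4. G1 genes lie near or above 100%, licensing genes at 42.7% and synthesis genes at 42.1% with vehicle, mitotic entry genes at 28.3% with vehicle and 20.8% with OGN, and epithelial markers at 5.66% and 9.06%.

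The gap between the populations was present under each treatment. With EVs 40 members were higher in Epcam+ cells and 1 was lower (32.6% and 34.2% of all genes), with SFs 43 and 2 (33.1% and 32.7%), and with OGN 44 and 2 (36.1% and 34.4%). The medians were 1.00, 1.29 and 1.57 on the log2 scale. Cdk4 was the member lower in Epcam+ cells with EVs, and Cdk4 and Cdk6 were those lower with SFs and with OGN. Cenpa was called higher with SFs (log2 fold change 0.35) and with OGN (0.87). With both of these treatments all 21 S-phase and 22 mitotic genes were called higher. With OGN, Ccnd1 was also higher in Epcam+ cells (0.29).

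Other cell cycle genes were read from further lists, which like the members were chosen with earlier results of these data known. Of all genes, 35.3% were higher in Epcam+ cells with vehicle and 34.3% lower. With vehicle, 40 of 44 further mitotic genes were higher in Epcam+ cells and 0 lower (median 1.17), as were 28 of 36 further replication genes with 1 lower (median 0.75). Of 19 genes of the E2F, RB family and MuvB group, 12 were higher and 3 lower (median 0.52). The inhibitors of cyclin-dependent kinases were mixed, with 2 of 5 higher and 2 lower, near the shares over all genes. Of the 7 listed, Cdkn2a and Cdkn2b were not analysed here. Cdkn1a was at 254, 268, 242 and 307 CPM in Epcam+ cells and at 482, 534, 451 and 451 CPM in fibroblasts (-0.84 ± 0.11, adjusted p = 1.6e-07). No Epcam+ library reached the level of any fibroblast library for this inhibitor.

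The next comparisons asked whether EVs, SFs or OGN moved these genes within Epcam+ cells. Only Ccnd2, with OGN, passed the test among the 48 members. With EVs 0 of 48 members passed the test (0.888% of 11716 genes did), with SFs 0 of 48 (0.23%), and 1 and 3 members had an unadjusted p below 0.05. DESeq2 also called 0 members in both. The members' log2 fold changes lay between -0.25 and 0.14 with EVs and between -0.22 and 0.24 with SFs, and the 95% intervals of single genes reached from -0.51 to 0.43 and from -0.53 to 0.46. Mki67 was at 680, 590, 628 and 583 CPM with EVs and at 642, 633, 692 and 701 CPM with SFs, within or near the range of vehicle.

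OGN lowered 1 member in Epcam+ cells, Ccnd2, where 1.22% of all genes were lower. Ccnd2 was at 294, 285, 278 and 191 CPM with OGN, against 315, 435, 325 and 241 CPM with vehicle (log2 fold change -0.32 ± 0.08, adjusted p = 0.025, edgeR). The groups overlapped, but the OGN-treated library was the lower one in 4 of 4 mice. Ccnd2 was also lower in 4 of 4 mice with EVs (log2 fold change -0.15) and with SFs (-0.18), neither called. All 3 treatments were set against the same vehicle libraries. The 3 genes read from the macrophage and leukocyte list, which do not single out leukocytes, summed to 712 to 872 CPM in Epcam+ cells with OGN. This was above the 464 to 513 CPM with vehicle and without overlap. Most of the sum with OGN was Cd14 (mean 445 CPM) and Lyz2 (mean 350 CPM). Cd68 was at 2.99, 6.64, 8.03 and 5.38 CPM with OGN against 5.61, 1.61, 2.83 and 4.74 CPM with vehicle, with overlap. The part of these 3 markers in the result was not tested. The call was lost in the model without pairing by mouse, with 0 members called, and 0 were called without mouse 2, mouse 3 or mouse 4 (log2 fold change -0.21, -0.34 and -0.32). The other 47 members were not called, with a median over all 48 of 0.02. Of the further lists, Cdkn1a alone was called, lower with OGN at 205, 195, 246 and 201 CPM (-0.33 ± 0.09, adjusted p = 0.038).

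In CCL206 fibroblasts SFs called 0 of 48 members (0.0599% of 11689 genes were called), with 0 at an unadjusted p below 0.05 and 0 called by DESeq2. The members' log2 fold changes lay between -0.22 and 0.20, with 95% intervals of single genes from -0.63 to 0.73. Mki67 was at 210, 201, 175 and 171 CPM with SFs against 236, 202, 156 and 168 CPM with vehicle. The 2 groups overlapped.

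With OGN, 6 of 48 members were lower in CCL206 fibroblasts and 0 higher (1.86% of all genes were lower), and 43 of 48 log2 fold changes were below 0, against 52% of all genes tested. The median was -0.26 over the members and -0.01 over all genes. Mitotic genes were below 0 in 22 of 22 cases (median -0.30), S-phase genes in 17 of 21 (median -0.21) and G1 genes in 4 of 5 (median -0.13). In 25 of 48 members the OGN-treated library was below the vehicle-treated library in 4 of 4 mice, where 16.8% of all genes were. The median over members was -0.22, -0.35, -0.09 and -0.26 in mice 1 to 4.

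The 6 called genes spanned mitosis, licensing and G1. Top2a was at 193, 185, 181 and 175 CPM with OGN, against 302, 279, 226 and 222 CPM with vehicle (-0.48 ± 0.09, adjusted p = 0.0032). Ccnd1 was at 813, 721, 590 and 614 CPM against 936, 1031, 874 and 881 CPM (-0.45 ± 0.09, adjusted p = 0.0061). Mcm6, a helicase subunit, was at 124, 115, 98.5 and 94.8 CPM against 140, 154, 134 and 127 CPM (-0.37 ± 0.09, adjusted p = 0.02). None of these 3 genes had overlapping groups, and the spread of Top2a between mice was smaller with OGN (SD 7.64) than with vehicle (SD 39.7).

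The other 3 called genes act at the spindle and kinetochore. Nusap1, which bundles spindle microtubules, was at 24.5, 20.5, 20.5 and 19.2 CPM with OGN against 37.3, 34.0, 26.6 and 27.5 CPM (-0.55 ± 0.12, adjusted p = 0.0099). Cenpe, a kinetochore kinesin, was at 59.6, 50.5, 41.4 and 36.8 CPM against 72.2, 79.7, 55.7 and 57.0 CPM (-0.50 ± 0.11, adjusted p = 0.014). Cenpa was at 46.9, 41.0, 40.8 and 40.3 CPM against 72.4, 76.8, 57.9 and 49.3 CPM (-0.59 ± 0.14, adjusted p = 0.017). The groups overlapped for Cenpe only. Groups did not overlap, all lower with OGN, for 8 members in total (7.79% of all genes did so), the others being Rrm1, Tyms and Smc4, which did not pass the test.

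**Figure D4:**
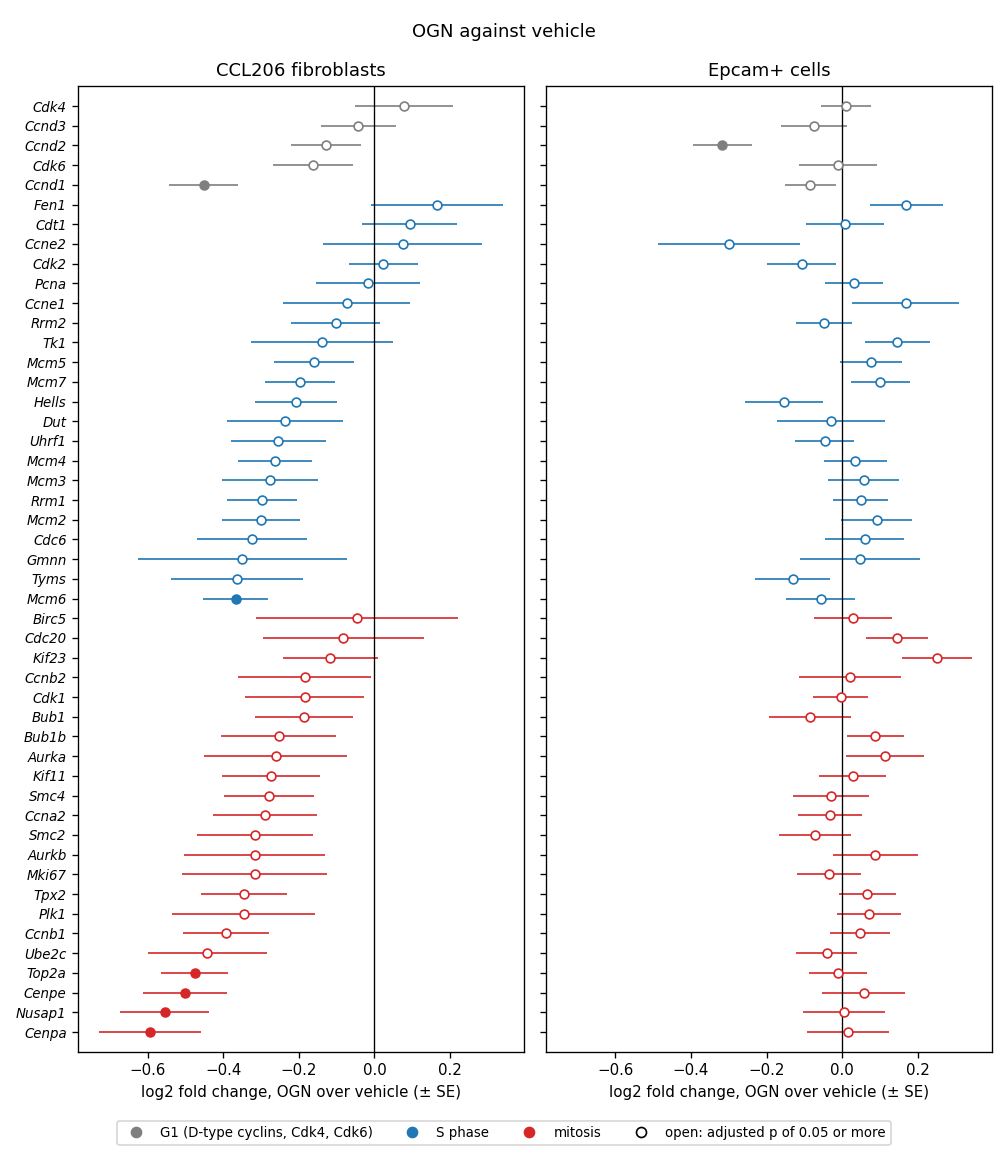
Log2 fold change of OGN over vehicle (± SE) for the 48 genes in CCL206 fibroblasts (left) and Epcam+ cells (right), with filled points for an adjusted p below 0.05. In fibroblasts 43 of 48 genes lie below 0 with a median of -0.26, and in Epcam+ cells the points scatter around 0 with a median of 0.02 and only Ccnd2 filled.

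Mki67 and Ccnb1, well-known proliferation genes, were lower on average without passing the test. Mki67 was at 187, 151, 143 and 132 CPM with OGN against 236, 202, 156 and 168 CPM with vehicle (-0.32 ± 0.19, adjusted p = 0.47). Ccnb1 was at 38.1, 40.6, 33.1 and 34.1 CPM against 52.0, 60.4, 42.8 and 38.2 CPM (-0.39 ± 0.11, adjusted p = 0.063). Pcna did not shift in the same way. It was at 118, 99.6, 107 and 99.2 CPM against 110, 116, 109 and 92.9 CPM, lower in 2 mice and higher in 2. Among further cell cycle genes, 4 of 44 mitotic genes were lower (Kif15 -0.65, Anln -0.44, Ndc80 -0.49 and Cenpf -0.49), where 1.86% of all genes were. Of 36 replication genes 0 were called, although 34 of these 36 were below 0 (median -0.21). Cdkn1a was at 422, 409, 463 and 518 CPM (-0.09 ± 0.13, adjusted p = 0.85).

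The number of members called with OGN in fibroblasts depended on single mice and on the fit. It was 3 without pairing by mouse, 0 without mouse 2, 2 without mouse 3 and 3 without mouse 4, and 18 without the EV-treated libraries, all of them lower. Leaving libraries out changes the spread shared in a fit, and the share of all genes called in these fits is not given here. The counts therefore describe the fits and not the members. Markers of other cells in the OGN-treated fibroblast libraries were also read. The summed epithelial markers were between 397 and 766 CPM with OGN and between 236 and 617 CPM with vehicle. The 3 genes read from the macrophage and leukocyte list (Cd14, Cd68 and Lyz2), which do not single out leukocytes, were between 196 and 341 CPM against 77.4 and 149 CPM. Both lists thus reached higher sums with OGN, without overlap for the latter. Most of the latter sum with OGN was Lyz2 (mean 151 CPM) and Cd14 (mean 102 CPM). Cd68 was at 4.31, 8.51, 6.04 and 6.16 CPM with OGN against 5.71, 5.27, 4.93 and 5.34 CPM with vehicle, with overlap. The part of either list in the result was not tested.

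The difference between the populations in their response to OGN was tested as an interaction, the effect in fibroblasts minus the effect in Epcam+ cells. It passed for 0 of 48 members (0.551% of 11805 genes passed), with 18 at an unadjusted p below 0.05 (813 of all 11805) and 2 called by DESeq2. Values were below 0 for 42 of 48 members (median -0.27), including 22 of 22 mitotic genes (median -0.36), against 50.8% of all genes. The cultures differed in this. In mice 1 to 4 the median over members was -0.24, -0.36, -0.01 and -0.39, and over mitotic genes -0.50, -0.58, 0.06 and -0.39. The smallest adjusted p was that of Top2a (-0.47 ± 0.12, adjusted p = 0.063). For SFs the interaction called 0 members and 0% of all genes (edgeR, 0 members at an unadjusted p below 0.05, 590 of 11805 genes at that p, 0 members by DESeq2).

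EVs called 15 members higher and 3 lower in CCL206 fibroblasts, where 19.8% of all genes were higher and 16.2% lower. The share of members called was thus above that of all genes in the higher direction and below it in the lower one. With the EV libraries of mice 2 and 4 left out of the CCL206 fit, 2 members were called, 1 in each direction (2.9% and 2.57% of all genes). Leaving out all cultures of mouse 2 left 0 called (edgeR) and leaving out those of mouse 4 left 2. Of the 24 members with the shortest transcripts (963 to 3175 nt) 11 were higher and 0 lower, and of the 24 longest (3371 to 11657 nt) 4 were higher and 3 lower. Without those EV libraries of mice 2 and 4 the counts were 1 and 0 for the shortest and 0 and 1 for the longest. With the length trend taken out they were 4 and 1, and 7 and 1. Across the 48 members the log2 fold change had a rank correlation with transcript length of -0.57, given as a description because all points share the same libraries. Within single libraries rho over members was -0.30, -0.49, -0.43 and -0.58 in mice 1 to 4. The fit with the length trend taken out called 11 members higher and 2 lower (14.4% and 9.19% of all genes). Markers of both populations moved in the same libraries. The fibroblast signature was below the vehicle range of 11569 to 12907 CPM in mice 2 and 4, and the epithelial markers went from 349 to 632 CPM in mouse 2 and from 236 to 709 CPM in mouse 4, against 617 to 470 CPM in mouse 1 and 385 to 437 CPM in mouse 3. The part of these markers in the result was not tested.

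**Figure D5:**
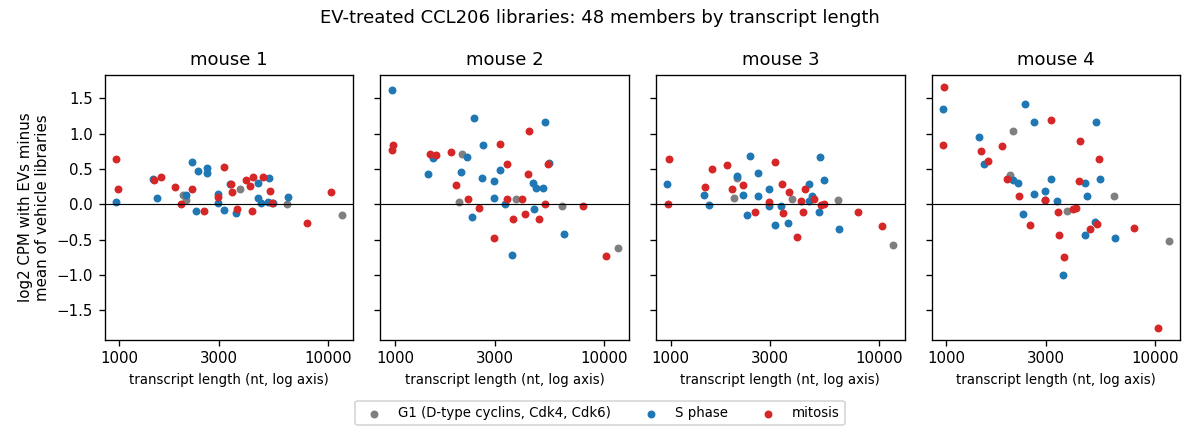
Deviation of each EV-treated CCL206 library from the mean of the vehicle-treated ones (log2 CPM) against transcript length (log axis) for the 48 members, 1 panel per mouse, colored by phase. Short transcripts lie high and long ones low, most steeply in mice 2 and 4 (rho -0.49 and -0.58).

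Of the 15 increases, 5 were among the 9 mitotic entry genes (class median 0.57), 4 among the 9 licensing genes (0.22) and 2 among the 9 genes of DNA synthesis (0.27). Dut, the dUTPase that keeps uracil out of DNA, was at 61.5, 104, 71.4 and 119 CPM with EVs against 39.2, 49.0, 43.7 and 45.8 CPM with vehicle (0.98 ± 0.15, adjusted p = 0.0024). Fen1, the flap endonuclease of lagging-strand synthesis, was at 41.4, 51.9, 39.7 and 65.3 CPM against 32.1, 28.9, 26.8 and 28.6 CPM (0.78 ± 0.18, adjusted p = 0.0073). Ccne2 was at 12.9, 22.6, 15.9 and 22.6 CPM against 10.6, 11.8, 11.2 and 6.93 CPM (0.89 ± 0.21, adjusted p = 0.0087). None of these 3 had overlapping groups, and for each the libraries of mice 2 and 4 were the highest.

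Among kinases, Cdk4 was at 293, 463, 365 and 576 CPM with EVs against 269, 270, 282 and 309 CPM (0.57 ± 0.13, adjusted p = 0.0073). Aurka, Aurora kinase A, was at 26.5, 33.1, 27.8 and 42.1 CPM against 21.7, 23.0, 13.5 and 16.6 CPM (0.81 ± 0.19, adjusted p = 0.0077). Cdk1 was at 67.0, 106, 59.5 and 95.4 CPM against 53.8, 62.9, 49.3 and 42.0 CPM (0.65 ± 0.16, adjusted p = 0.0089). The groups overlapped for Cdk4 and Cdk1 but not for Aurka. Cenpa was at 80.0, 103, 75.1 and 107 CPM against 72.4, 76.8, 57.9 and 49.3 CPM (0.52 ± 0.14, adjusted p = 0.011), and Ube2c, an enzyme of mitotic ubiquitination, at 49.9, 54.4, 31.7 and 57.2 CPM against 35.4, 39.6, 29.3 and 24.8 CPM (0.58 ± 0.16, adjusted p = 0.013). With the length trend taken out these 2 stood at 0.10 and -0.0072.

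The 3 members lower with EVs had a median transcript length of 10270 nt, against 2214 nt for the 15 higher. Cdk6 (11657 nt) was at 133, 96.3, 98.6 and 103 CPM against 158, 168, 129 and 139 CPM (-0.46 ± 0.11, adjusted p = 0.0082), and stood at 0.26 once the length trend was taken out. Mki67 (10270 nt) was at 211, 113, 152 and 55.8 CPM against 236, 202, 156 and 168 CPM (-0.58 ± 0.20, adjusted p = 0.034). Uhrf1, which maintains DNA methylation behind the replication fork, was at 80.3, 53.0, 73.1 and 43.5 CPM against 104, 99.1, 78.0 and 74.2 CPM (-0.50 ± 0.13, adjusted p = 0.011). In all 3 the lowest library was that of mouse 2 or mouse 4. The other members called higher were Birc5, Gmnn, Cdt1, Ccnb2, Cdc20, Mcm5 and Mcm3, with log2 fold changes between 0.30 and 0.95. Of the further lists, 3 of 5 inhibitors were higher and 1 lower, with Cdkn1a at 587, 877, 624 and 981 CPM (0.66 ± 0.13, adjusted p = 0.0046). Of 44 mitotic genes 10 were higher and 1 lower, led by Pttg1 (1.06), Stmn1 (1.02), Cks1b (0.88) and Cdca3 (0.90). Of 36 replication genes 9 were higher and 3 lower, and of the 19 in the E2F, RB family and MuvB group 2 and 1. These counts stand beside 19.8% and 16.2% of all genes. Without the EV libraries of mice 2 and 4, 1 inhibitor was higher and 0 genes of the other 3 lists were called (edgeR), where 2.9% of all genes were higher and 2.57% lower. With the length trend taken out, 10 mitotic genes were higher and 0 lower, and 6 replication genes higher and 1 lower. Of the inhibitors 1 was higher and 0 lower, and of the E2F, RB family and MuvB group 0 and 1. In that fit 14.4% of all genes were higher and 9.19% lower.

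The response to EVs differed between the populations for 13 members by the interaction test, 11 of them above 0 and 2 below (11.8% and 12% of 11805 genes). Those with the smallest p were Dut (1.17 ± 0.22, adjusted p = 0.0032), Cdk1 (0.71 ± 0.17, adjusted p = 0.008), Ube2c (0.72 ± 0.17, adjusted p = 0.008), Cdk4 (0.57 ± 0.14, adjusted p = 0.0094) and Aurka (0.80 ± 0.21, adjusted p = 0.011). The others were Fen1, Ccne2, Birc5, Cdt1, Gmnn and Pcna above 0 and Uhrf1 and Cdk6 below. The count was above the background in the first direction and below it in the second. With the EV libraries of mice 2 and 4 left out of the CCL206 fraction 0 members passed (edgeR, DESeq2 14 on all libraries), and leaving out whole mice gave 2 without mouse 2, 7 without mouse 3 and 1 without mouse 4. In Epcam+ cells EVs left Dut at 87.5, 98.9, 71.5 and 67.3 CPM, where vehicle gave 77.6, 95.2, 96.2 and 102 CPM.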

How the data were processed

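Members and gene lists were chosen with earlier results of these data known, as were the alternatives. The authors deposited raw read counts per gene symbol for 32 libraries. Per the labels and the study's methods, reads were trimmed with Trimmomatic 0.30 and counted per gene, and DESeq2 1.34.0 was named. The build is GRCm38.p6 in the methods and GRCm39 in the labels. Aligner, counter and annotation are not given in the sources used here. No 0 occurs in the table (lowest count 1), so that a gene with no reads in any one library was not analysed here. Depth differed by library, so that levels of low genes are less precise in the shallow ones.

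Counts were analysed with edgeR 4.0.16 (R 4.3.3) after filterByExpr (minimum count 10) and TMM normalization. The quasi-likelihood F test was fitted with mouse and treatment over the 16 libraries of a population, or with mouse and group over all 32, and p-values were adjusted by the Benjamini-Hochberg procedure over all genes tested (11716 in Epcam+ cells, 11689 in CCL206 cells, 11805 in both). The standard error is the fold change divided by the root of F. Interactions were contrasts of contrasts with mouse within population. The script recovered known changes in simulated data without a mouse effect or a length trend. Those changes were larger than most treatment effects given here, so recovery of smaller ones was not tested. Alternatives were DESeq2 1.42.0, its size factors, other count filters, no pairing, subsets of libraries, each mouse left out and a length trend taken out by offsets. No 2 libraries were identical, and the closest of 48 replicate pairs differed by a chi-square of 2.98 per degree of freedom.

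Pairing follows from the mouse that gave the Epcam+ cells of all 4 cultures. Deviations from the group mean of libraries with the same mouse had a mean correlation between 0.09 and 0.22 over the 7 comparisons. Other mice gave -0.07 to -0.03. Centering each group on its mean makes these negative once the former are positive, so the contrast does not test the pairing. A library matched that of its own mouse best in 1 of 4 mice with OGN in either population. With SFs this was 3 of 4 in Epcam+ cells and 4 of 4 in CCL206 cells, and elsewhere 2 of 4. For CCL206 cells, 1 line, a shared mouse is a shared culture set.

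Named by rule were the called members up to 10 by smallest p in each treatment comparison and interaction, the 2 with the smallest p per class and direction between populations, and 11 anchors (Mki67, Top2a, Cdk1, Ccnb1, Pcna, Mcm5, Rrm2, Ccne2, Ccnd1, Ccnd2 and Cdk6). Other members given beside them were chosen after their values were seen. Transcript lengths, used for levels per kilobase, were matched to 98.9% of genes by symbol.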

Additional observations from a re-analysis of the deposited data

Results flagged for a closer look

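Single libraries stood far from the other 3 of their group by Dixon's test at the 95% level for 13 of 384 combinations of member and group (3.39%). Chance gives about 1 in 20. In CCL206 cells these were Bub1 in mouse 1 with vehicle (35.8 CPM), Bub1 in mouse 2 with SFs (30.2 CPM), Ccne2 in mouse 4 with SFs (8.98 CPM), Ccna2 in mouse 2 with EVs (30.9 CPM) and Cenpa in mouse 1 with OGN (46.9 CPM). In Epcam+ cells with SFs, Ccnb2 (40.9 CPM), Cenpa (90.0 CPM) and Smc2 (149 CPM) stood apart in mouse 2. In Epcam+ cells with EVs, Gmnn (59.8 CPM) and Mcm3 (258 CPM) did so in mouse 2 and Uhrf1 (203 CPM) in mouse 4. In Epcam+ cells with OGN, Ccnd2 (191 CPM) did so in mouse 4 and Ccnd3 (91.7 CPM) in mouse 3, and the mean log2 CPM of the 5 G1 genes was lowest at 7.52.

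The response to EVs differed between the populations by the interaction test, as the log2 change in CCL206 cells minus that in Epcam+ cells, for 13 members. The values were 1.17 for Dut, 0.71 for Cdk1, 0.72 for Ube2c, 0.57 for Cdk4, 0.80 for Aurka, 0.73 for Fen1 and 0.97 for Ccne2. They were 0.94 for Birc5, 0.51 for Cdt1, 0.99 for Gmnn, 0.47 for Pcna, -0.56 for Uhrf1 and -0.51 for Cdk6.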

How the results depend on the processing

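The difference between Epcam+ cells and CCL206 cells with vehicle stood at 43 or 44 called members under all 10 alternatives. For EVs and SFs in Epcam+ cells, SFs in CCL206 cells and the SF interaction, 0 members were called by edgeR and by DESeq2 under each alternative run. With OGN in Epcam+ cells, 1 member was called, 0 without the replicate block and 0 in a fit of only the 8 libraries, and between 0 and 1 with each mouse left out. With OGN in CCL206 cells, 6 were called, 3 without the replicate block, 13 in only the 8 libraries, 18 without the EV libraries, and 0 to 4 with each mouse left out. With EVs in CCL206 cells, 18 were called, 1 in only the 8 libraries, 2 with the EV libraries of mice 2 and 4 left out, and 0 to 22 with each mouse left out. With the length trend taken out, Cdk6 turned to 0.26 and Ube2c to -0.0072. The EV interaction gave 13 members, 2 in only the 16 libraries compared, 0 with those EV libraries of mice 2 and 4 left out, and 1 to 16 with each mouse left out. DESeq2 called 2 members in the OGN interaction, edgeR 0. Pairing by mouse changed no other count by over 1.5 times. The causes were not tested. Counts in this section stand without the share of all genes called in the same fit, so they describe the fits and not the members. With 4 mice, the widest single-gene intervals in CCL206 cells with SFs reached -0.63 and 0.73 on the log2 scale.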
